A study of Mus musculus with 24 samples.

Results

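Expression of 10 genes of the endoplasmic reticulum (ER) stress response and the integrated stress response was followed in the hippocampal CA1 subfield of mice after status epilepticus (SE), a prolonged seizure. The genes, Atf4, Atf5, Ddit3, Xbp1, Hspa5, Trib3, Chac1, Asns, Sesn2 and Herpud1, were chosen by name as stress response genes, with earlier results of these data known. All 10 were found by gene symbol among the 18647 genes of the count table. Adult C57Bl/6N mice, at least 60 days old, received 1 mg/kg scopolamine methyl nitrate, then 335 mg/kg pilocarpine to induce SE, and 4 mg/kg diazepam after its onset. Tissue microdissected from CA1 was collected at 5 times after SE (6, 12, 24, 36 or 72 h). Non-SE controls (Ctr), collected at 12, 36 and 72 h, received the same scopolamine and diazepam but saline in place of pilocarpine, so scopolamine and diazepam are common to all groups. Animals that received pilocarpine without developing SE were not used. There were 3 libraries per group and 24 over the 8 groups. The labels do not say that each library came from a separate mouse, so p-values measure the spread between these libraries.

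The ER folds secreted and membrane proteins. When unfolded proteins accumulate there, the sensors IRE1 (encoded by Ern1), PERK (Eif2ak3) and ATF6 start the unfolded protein response, which raises chaperones through XBP1 and ATF6 and lowers general translation through phosphorylation of eIF2alpha. Other kinases phosphorylate eIF2alpha on lack of amino acids, viral RNA or lack of heme, and this shared route, the integrated stress response, raises translation of the transcription factor ATF4 and through it the mRNA of amino acid, redox and feedback genes. Much of the control of these factors is not visible in mRNA counts: ATF4 is controlled largely in translation, and a count per gene holds the spliced and the unspliced mRNA of Xbp1 together. In bulk tissue, fewer cells of a type and less RNA per cell cannot be told apart.

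Values are CPM (counts scaled to a common library size) after normalization, and log2FC is the log2 fold change of the model described under processing, given with its standard error (s.e.). A gene counted as a differentially expressed gene (DEG) when its adjusted p, from edgeR's quasi-likelihood test over all 18153 genes tested, was at most 0.05 and its absolute log2FC at least 0.66, or 1 between SE time points. All 10 genes passed the filter on low counts. Library totals ranged from 2663936 to 30133731 counts, lowest in replicate 3 of Ctr 72 h, so the precision was lowest there. Replicate 2 of Ctr 72 h stood apart from the other controls: its 7 sensory ganglion markers summed to 1696 CPM, against 3.38 to 68.2 CPM in the other 8 control libraries. Of the 15 SE libraries, 5 had a sum above that of any other control, namely replicate 3 at 6 h (314.8 CPM), replicate 1 at 12 h (630.1 CPM), replicate 3 at 36 h (843.3 CPM) and replicates 1 and 2 at 72 h (945.1 and 491.9 CPM). The log2 of this sum was used as a covariate in place of the factor of unwanted variation, an alternative added after seeing the data. With it, 59 of 60 values of the 10 genes kept their direction and their side of the threshold. The replaced factor was -0.80 in replicate 2 of Ctr 72 h and 0.38 and 0.37 in replicates 1 and 3. Libraries of the other groups had -0.14 to 0.098. Both covariates thus set replicate 2 of Ctr 72 h apart and are not independent.

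In controls the mRNA level per kilobase of exon was highest for Hspa5, at 44.7 ± 5.93 CPM per kb (SD, n = 9), and Atf4, at 36.8 ± 4.81 CPM per kb. The length is that of the annotated exons of a gene merged over its transcripts, not that of 1 mRNA. The order of the genes therefore depends on the annotation. Xbp1 followed with 20.4 ± 3.28, Asns with 15.5 ± 2.46 and Herpud1 with 13.5 ± 2.00 CPM per kb. Ddit3 had 8.41 ± 1.08, Atf5 6.66 ± 1.22, Sesn2 5.66 ± 1.68 and Chac1 3.28 ± 1.89 CPM per kb. Trib3 was near the limit of detection, at 0.161 ± 0.083 CPM per kb, with 1 to 9 counts per control library. Asns and Herpud1, and likewise Atf5 and Sesn2, differed by less than the SD of either gene. None of the 10 genes was a DEG between any pair of control groups by edgeR, DESeq2 or limma-voom, and 0 had an unadjusted p under 0.05. Of the 18153 genes tested by edgeR, 0 were DEGs between Ctr 12 h and 36 h, 356 between 36 and 72 h and 169 between 12 and 72 h. In the same order, 648, 3876 and 3500 genes had an unadjusted p under 0.05, so the control groups were not alike for all genes.

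All 10 genes had a positive log2FC from 6 to 36 h after SE, and fewest passed at 72 h by edgeR, DESeq2 and limma-voom. At 6 h, which has no control of its own time, 7 of the 10 rose relative to the 3 control groups averaged, where 15.8% of all genes tested rose. Against the time-matched controls, 8 rose at 12 h, where 13.9% of all genes did. At 24 h, again against the mean of the controls, 6 rose beside 14.9% of all genes. By DESeq2 and by limma-voom, 8 passed at both 6 and 12 h. At 36 h, 4 rose by edgeR beside 12.7%, and at 72 h 2, Atf5 and Hspa5, beside 15.2%. None of the 10 fell past the threshold in these 5 comparisons. The median log2FC of the 10 genes was 1.17, 1.52, 1.09 and 0.76 from 6 to 36 h and -0.18 at 72 h, while that of all genes tested was 0.057, 0.0071, 0.039, 0.0033 and 0.097. The 6 h and 24 h comparisons share their controls with the others.

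**Figure D1:**
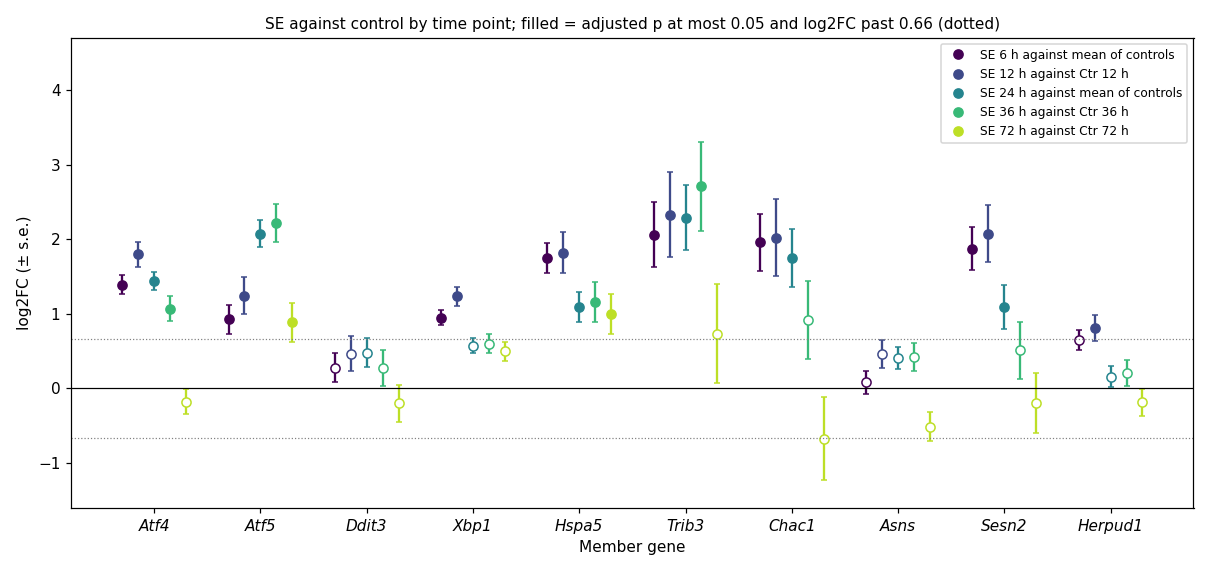
Log2FC of the 10 genes (x axis) in SE against control at the 5 time points (colours), with bars of 1 s.e.; filled points passed the adjusted p of 0.05 and the log2FC of 0.66 marked by dotted lines. Atf5 and Hspa5 are filled at all 5 time points, Ddit3 and Asns at none, and Atf4 drops from 1.07 at 36 h to -0.18 at 72 h.

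The numbers in the sample labels fell into 3 ranges, 92 to 104, 109 to 122 and 162 to 169, and the labels do not say what they mean. All libraries of SE 24 h came from the first range, which held no control. All of Ctr 72 h came from the third, which held no SE 72 h library. Range and group therefore cannot be told apart within these groups. Outside Ctr 72 h, the third range held only replicate 3 of Ctr 12 h and replicate 1 of SE 12 h. Values at 72 h with range as a factor thus lean on these libraries, the latter with 630.1 CPM of sensory ganglion markers. Outside SE 24 h, the first range held only SE libraries of other times. With range as a factor in the fit, 6 of the 10 genes passed at 6 h, 7 at 12 h, 3 at 24 h (Atf4, Atf5 and Trib3) and 1, Hspa5, at 72 h (log2FC 0.84, adjusted p = 0.0499). Of the 18153 genes tested, 2245, 2177, 1944 and 1859 rose at these times in that fit. At 36 h, within the second range (3 controls and replicates 1 and 2 of SE 36 h, as in the fit without replicate 3), the log2FC was 1.12 for Atf4, 2.05 for Atf5, 1.05 for Hspa5 and 3.04 for Trib3.

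Of the transcription factors, Atf4 (ENSMUSG00000042406.9, chr15:80139372-80141745 in GRCm39, plus strand) is the effector of the integrated stress response. Its level in controls was narrow, with 75.1 CPM in the lowest, 83.2 CPM in the median and 111.0 CPM in the highest of 9 libraries. After SE, Atf4 had 196.5, 238.2 and 248.1 CPM at 6 h and 210.9, 261.2 and 349.3 CPM at 12 h. All 12 SE libraries from 6 to 36 h lay above every control library, the lowest being replicate 1 at 36 h with 152.2 CPM. At 72 h, the 3 libraries were back among the controls, with 84.0, 88.4 and 81.2 CPM. Atf4 rose by a log2FC of 1.39 ± 0.13 (s.e.) by 6 h and 1.80 ± 0.17 by 12 h (adjusted p = 2.24e-07), and the rise was 1.44 ± 0.13 after 24 h and 1.07 ± 0.17 after 36 h (adjusted p = 5.80e-05). At 72 h its log2FC was -0.18 ± 0.17 (adjusted p = 0.458).

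Atf5 (ENSMUSG00000038539.16, chr7:44461680-44466082, minus strand), a related factor whose translation responds to eIF2alpha phosphorylation as that of Atf4 does, had its highest levels at 24 and 36 h. Whether its peak was later than that of Atf4 was not tested. It had 10.4 to 18.4 CPM in the 9 controls, 29.0, 20.9 and 25.4 CPM at 6 h, and 17.4, 31.3 and 44.6 CPM at 12 h, where the libraries were widely spread. At 24 h the 3 libraries lay close together at 55.0, 55.2 and 57.0 CPM, and at 36 h they had 53.6, 38.7 and 62.7 CPM. At 72 h it was 24.5, 25.6 and 38.3 CPM, with no overlap with the Ctr 72 h libraries at 14.2, 15.9 and 18.4 CPM. Atf5 rose at all 5 time points, by a log2FC of 0.93 ± 0.20 after 6 h and 1.25 ± 0.25 after 12 h. The rise was 2.08 ± 0.19 after 24 h, 2.22 ± 0.26 after 36 h (adjusted p = 1.86e-06) and 0.88 ± 0.26 after 72 h (adjusted p = 0.0156). The call at 72 h was lost without replicate 3 of SE 72 h (log2FC 0.65, adjusted p = 0.0879) and without replicate 1 of Ctr 72 h (log2FC 0.77, adjusted p = 0.0613). With label range as a factor, the calls at 6 h (log2FC 0.62, adjusted p = 0.0122) and 72 h (0.36, adjusted p = 0.404) were lost. Of 2017 exon bases, 82 are shared with genes on the opposite strand, and the counting ignored strand.

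Ddit3 (ENSMUSG00000025408.16, chr10:127126560-127132163, plus strand) encodes CHOP, the factor tied to cell death under lasting ER stress. It did not pass at any time. Controls had 12.4 to 18.4 CPM, and SE libraries 12.5 to 28.5 CPM, with overlap with the controls at every time except 24 h (18.9, 22.7 and 21.4 CPM). The log2FC was 0.28 ± 0.19 after 6 h and 0.47 ± 0.24 after 12 h (adjusted p = 0.128). At 24 h it was 0.48 ± 0.19, with an adjusted p of 0.0496 but a size under the log2FC threshold, and later 0.27 ± 0.24 (36 h) and -0.20 ± 0.25 (72 h). The highest value, 28.5 CPM, was replicate 2 of SE 36 h, whose companions had 14.1 and 12.5 CPM. Without that library the log2FC at 36 h was -0.19. For Ddit3, 317 of 1802 exon bases lie in other annotated genes, among them Mars1 on the opposite strand, so part of its reads may have been left uncounted or been mixed with theirs.

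Xbp1 (ENSMUSG00000020484.20, chr11:5470654-5475893, plus strand), whose mRNA is the splicing target of IRE1, rose early. It had 46.9 to 82.0 CPM in controls, then 123.1, 132.1 and 127.4 CPM at 6 h and 122.6, 152.5 and 164.2 CPM at 12 h. It had 93.2, 101.9 and 98.9 CPM at 24 h and 106.1 to 113.2 CPM at 36 h, still above every control library. At 72 h, replicate 3 had 116.5 CPM and the others 78.3 and 76.9 CPM, above the 3 libraries of Ctr 72 h but not above all controls. Xbp1 passed at 6 h (log2FC 0.95 ± 0.10, adjusted p = 4.13e-07) and at 12 h (1.23 ± 0.13, adjusted p = 6.72e-07). Later it had adjusted p of 0.000132, 0.00113 and 0.00699 but a log2FC of 0.58, 0.60 and 0.50, under the threshold.

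**Figure D2:**
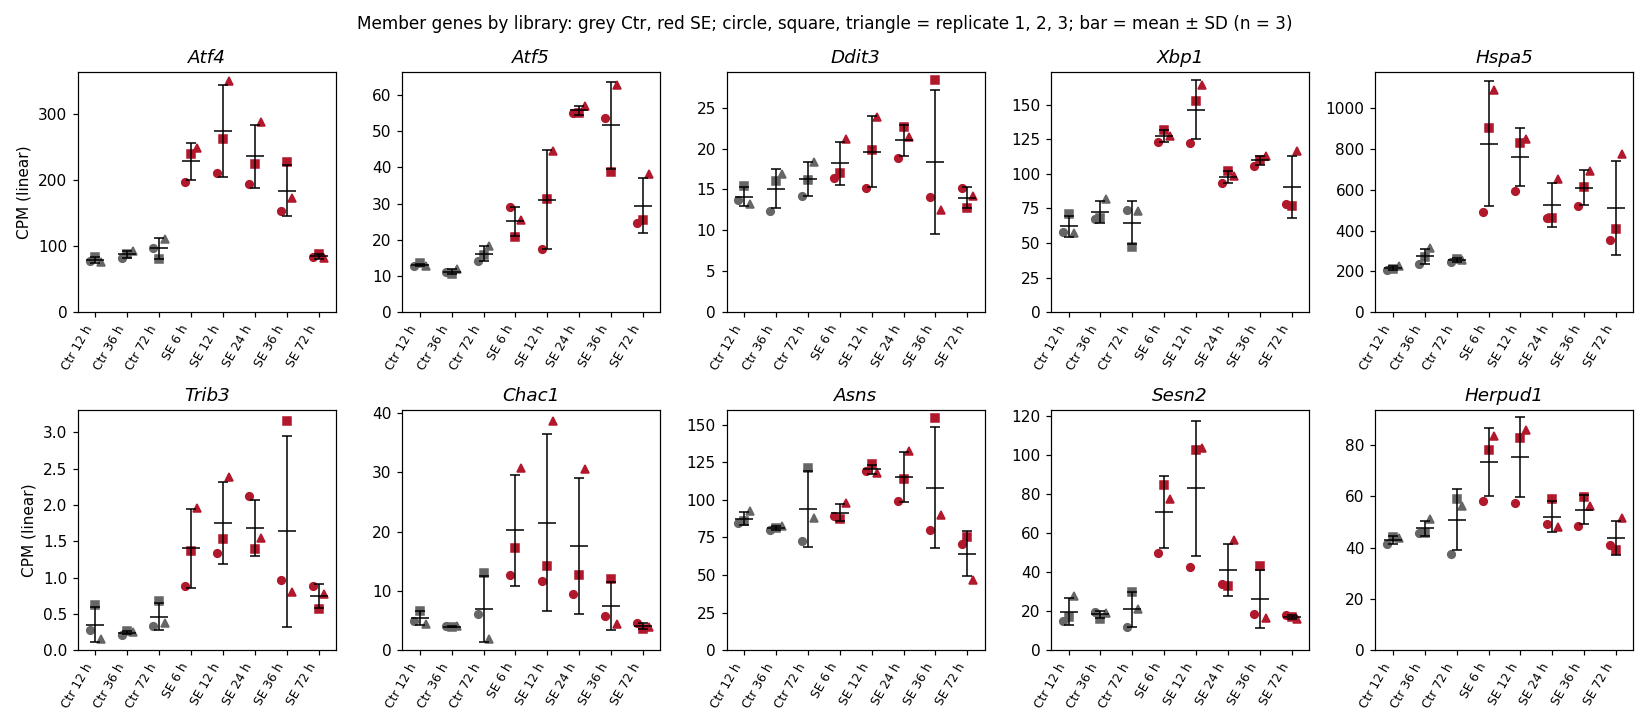
CPM on a linear axis (y) of each of the 10 genes in the 3 control and 5 SE groups (x), with 1 symbol per library and black bars for the mean ± SD of 3 libraries. Atf4, Chac1 and Sesn2 are high from 6 to 24 h and near the controls at 72 h, Atf5 is highest at 24 and 36 h, and Hspa5 stays above the controls at 72 h, with replicate 3 at 776.6 CPM.

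Of the 2 ER genes, Hspa5 (ENSMUSG00000026864.14, chr2:34661982-34668880, plus strand) encodes BiP, the main ER chaperone of the HSP70 family, which also holds the sensors inactive. It had 208.1 to 313.4 CPM in controls and 491.5, 901.4 and 1088 CPM at 6 h. Every SE library, with 351.9 CPM in the lowest, lay above every control library. Hspa5 rose at all 5 time points, by a log2FC of 1.75 ± 0.20 after 6 h and 1.82 ± 0.27 after 12 h (adjusted p = 3.88e-05). Later the rise was 1.09 ± 0.20 (24 h), 1.16 ± 0.27 (36 h) and 1.00 ± 0.27 (72 h, adjusted p = 0.00894). The 72 h libraries had 351.9, 408.3 and 776.6 CPM against 245.6, 262.6 and 257.2 CPM in Ctr 72 h, and the size of the change rested on replicate 3: without it the log2FC was 0.58 and the call was lost (adjusted p = 0.0890). With label range as a factor, the call at 24 h was lost (log2FC 0.49, adjusted p = 0.106). Of its 5550 exon bases, 1313 are shared with Rabepk on the opposite strand.

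Herpud1 (ENSMUSG00000031770.17, chr8:95113037-95123141, plus strand) encodes an ER membrane protein of ER-associated degradation. It passed at 1 of the 5 time points. Controls had 37.6 to 59.2 CPM, SE 6 h 58.3, 78.3 and 83.5 CPM, and SE 12 h 57.4, 82.8 and 85.8 CPM. It rose at 12 h (log2FC 0.81 ± 0.18, adjusted p = 0.00127). At 6 h its log2FC of 0.65 ± 0.14 (adjusted p = 0.000986) fell just short of the threshold, which it passed by DESeq2 (0.67) and by limma-voom (0.66). With label range as a factor the log2FC at 12 h was 0.59, under the threshold (adjusted p = 0.0130). From 24 h on it overlapped the controls, with 39.1 to 59.9 CPM and a log2FC of 0.16, 0.21 and -0.19.

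Promoter sequence is shown for the genes whose start sites hold a match to an element known from these pathways. The ER stress element ERSE (CCAAT and CCACG with 9 bases between, bound by NF-Y and ATF6), its variant ERSE-II (ATTGG and CCACG with 1 base between), the UPRE core TGACGTGG and the C/EBP-ATF core TGATGNAA were searched on both strands in RefSeq promoters of 300 bases (250 before and 50 after the start; table build GRCm38.p6). The 10 genes had 11 promoters there, 2 of them for Atf5. ERSE was found in 0.119% of all 32851 promoters and, among the 10 genes, in Hspa5. ERSE-II was found in 0.0365% of all promoters and, among the 10 genes, in Herpud1. The C/EBP-ATF core was in 3.97% of all promoters and in those of Chac1, Asns, Herpud1 and, 14 to 21 bases after the start, Trib3. The UPRE core, in 0.676% of all promoters, was in none of the 11, and Atf4, Atf5, Ddit3, Xbp1 and Sesn2 held none of the 4. The sequences matched GRCm39 exactly at 1 place each. In the stretches that follow, read 5′ to 3′ on the strand of the gene, capitals mark the match. Those of Hspa5 (chr2:34662032-34662060) and Asns (chr6:7693220-7693237, minus strand) lie before the RefSeq start but within an exon of a longer GENCODE transcript and are cut to the match with 5 bases on each side. Those of Herpud1 (chr8:95112915-95113036) and Chac1 (chr2:119181500-119181567) lie outside annotated exons of the gene. In Herpud1, the first match is the C/EBP-ATF core, read on the opposite strand as in Chac1, and the second is ERSE-II.
Hspa5: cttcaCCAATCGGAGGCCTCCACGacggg
Herpud1: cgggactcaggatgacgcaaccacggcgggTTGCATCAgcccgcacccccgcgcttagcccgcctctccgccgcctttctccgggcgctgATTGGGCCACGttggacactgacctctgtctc
Chac1: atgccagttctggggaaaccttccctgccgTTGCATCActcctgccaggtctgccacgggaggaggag
Asns: ccacaTGATGAAActtcc
Of the 4 genes that held the C/EBP-ATF core, Trib3 passed at 6, 12, 24 and 36 h, Chac1 at 6, 12 and 24 h, Herpud1 at 12 h, just short of the threshold at 6 h, and Asns at none of the 5 time points. A match is a description of these letters and not evidence of binding in this tissue.

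Of the genes downstream of ATF4, Chac1 (ENSMUSG00000027313.4, chr2:119181689-119184866, plus strand) encodes an enzyme that degrades glutathione. It had 1.88 to 12.96 CPM in controls, where replicate 2 of Ctr 72 h was the highest and replicate 3, with 5 counts, the lowest. After SE it had 12.7, 17.2 and 30.8 CPM at 6 h, 11.6, 14.3 and 38.6 CPM at 12 h and 9.45, 12.7 and 30.6 CPM at 24 h. Replicate 3 was the highest library in each of these 3 groups, and the lowest library at 6, 12 and 24 h lay below the highest control. At 36 h the values were 5.85, 12.1 and 4.50 CPM, and at 72 h 4.67, 3.63 and 4.00 CPM, within the range of all controls. Without replicate 2 of Ctr 72 h, the highest control was 6.70 CPM. The 36 h libraries lay above those of Ctr 36 h (3.91 to 4.03 CPM), but the log2FC of 0.92 ± 0.53 did not pass (adjusted p = 0.199). At 72 h the log2FC was -0.68 ± 0.56 (adjusted p = 0.394). Chac1 rose at 6 h (log2FC 1.96 ± 0.38, adjusted p = 0.000444), at 12 h (2.02 ± 0.52, adjusted p = 0.00433) and at 24 h (1.75 ± 0.39, adjusted p = 0.00118). Without replicate 3 of the SE group, the log2FC was 1.28 at 12 h (adjusted p = 0.0469) and 1.09 at 24 h, where the call was lost (adjusted p = 0.0556). The 24 h call was also lost with label range as a factor (log2FC 1.23, adjusted p = 0.115).

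Sesn2 (ENSMUSG00000028893.9, chr4:132219335-132237815, minus strand) encodes sestrin 2, a leucine sensor that restrains mTORC1. With 11.8 to 29.8 CPM in controls, it had 49.9, 84.8 and 77.3 CPM at 6 h and 42.7, 102.4 and 103.5 CPM at 12 h, with no overlap. At 24 h it had 34.1, 33.1 and 56.5 CPM, still above all controls. At 36 h, replicate 2 had 43.4 CPM and the others 18.8 and 16.5 CPM, and at 72 h all 3 were between 16.2 and 17.9 CPM. The log2FC was 1.87 ± 0.29 at 6 h (adjusted p = 4.02e-05), 2.08 ± 0.39 at 12 h (adjusted p = 0.000323) and 1.09 ± 0.29 at 24 h (adjusted p = 0.00565). Without replicate 3 of SE 24 h the last was 0.80 and the call was lost (adjusted p = 0.0822), as it was with label range as a factor (0.94, adjusted p = 0.152).

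Trib3 (ENSMUSG00000032715.10, chr2:152179337-152186012, minus strand) encodes a pseudokinase that restrains ATF4 and AKT. It was scarce in all libraries, and its values rest on few reads. Control libraries held 1 to 9 counts (0.155 to 0.682 CPM) and SE libraries 6 to 46 counts (0.572 to 3.15 CPM). It passed at 6 h (log2FC 2.06 ± 0.44), 12 h (2.33 ± 0.57), 24 h (2.29 ± 0.43) and 36 h (2.71 ± 0.60, adjusted p = 0.00165), and had 0.73 ± 0.66 at 72 h (adjusted p = 0.442). Replicate 2 of SE 36 h had 3.15 CPM and its companions 0.963 and 0.798 CPM, and without it the log2FC at 36 h was 1.82 (adjusted p = 0.0201). Without replicate 2 of Ctr 12 h, which held 9 counts, the log2FC at 12 h was 3.09 (adjusted p = 0.00177).

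Asns (ENSMUSG00000029752.13, chr6:7672734-7693719, minus strand) encodes asparagine synthetase, a classical ATF4 target. Its control values of 72.3 to 121.4 CPM overlapped those of SE 6 h (87.2 to 97.7 CPM). At 12 h the 3 SE libraries, with 119.1, 123.7 and 117.7 CPM, lay above the 3 of Ctr 12 h (84.3, 85.6 and 92.4 CPM), but the log2FC of 0.46 ± 0.19 missed both thresholds (adjusted p = 0.0605). At the other times it was 0.08 ± 0.15 (6 h), 0.41 ± 0.15 (24 h), 0.42 ± 0.19 (36 h) and -0.51 ± 0.19 (72 h, adjusted p = 0.0535). The lowest value of all, 46.9 CPM, was replicate 3 of SE 72 h, and the highest, 154.2 CPM, replicate 2 of SE 36 h. Without replicate 1 of Ctr 72 h, Asns passed as lower at 72 h (log2FC -0.70, adjusted p = 0.0238).

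Between consecutive SE time points, few of the 10 genes passed the threshold of 1, as did few of all genes tested. From 6 to 12 h, 12 to 24 h and 24 to 36 h, 0 of the 10 passed by edgeR, DESeq2 or limma-voom. By edgeR, 1.34%, 3.18% and 0.529% of all genes passed. An unadjusted p under 0.05 by edgeR was found for 1, 4 and 2 of the 10, and for 3730, 4474 and 3015 of the 18153 genes tested. From 12 to 24 h, Atf5 had a log2FC of 0.85 ± 0.24 (adjusted p = 0.0339) and Xbp1 one of -0.57 ± 0.13 (adjusted p = 0.00929), both short of 1. Sesn2 had -1.03 ± 0.37 over the same step, with an adjusted p of 0.0886. From 36 to 72 h, 0 of the 10 genes had a positive log2FC, and their median was -0.69, where that of all genes tested was 0.052. Atf4 fell by 1.12 on the log2 scale (s.e. 0.17, adjusted p = 0.000295), the 1 gene of the 10 to pass, beside 4.13% of all genes. Without replicate 2 of SE 36 h it had -0.94 (adjusted p = 0.00380), just under the threshold. Atf5 (-0.81 ± 0.24, adjusted p = 0.0377) and Asns (-0.76 ± 0.19, adjusted p = 0.0146) did not reach 1 over this step, though Atf5 did without replicate 3 of SE 72 h (-1.05, adjusted p = 0.0219).

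The effect of SE itself, taken as the log2FC against the time-matched control, was compared between time points. Between 12 and 36 h, 0 of the 10 effects differed by edgeR, DESeq2 or limma-voom, beside 3.38% of all genes by edgeR. An unadjusted p under 0.05 by edgeR was found for 5 of the 10 and for 3690 of the 18153 genes tested. Sesn2 had the largest difference, -1.56 ± 0.54 (adjusted p = 0.103). Atf5 had the one sizeable positive difference, 0.97 ± 0.35 (adjusted p = 0.120). With 1 library left out, 1 to 3 of the 10 passed in 5 of 24 fits, the most, Atf4, Xbp1 and Sesn2, without replicate 1 of SE 12 h. Between 36 and 72 h, the effect was lower for 3 genes, beside 4.81% of all genes with a difference in either direction. They were Atf4 (-1.25 ± 0.24, adjusted p = 0.00559), Atf5 (-1.33 ± 0.36, adjusted p = 0.0358) and Asns (-0.93 ± 0.27, adjusted p = 0.0492). The calls for Atf5 and Asns were close to the threshold and were lost in 9 and 19 of the 24 fits that left out 1 library. Between 12 and 72 h, 6 of the 10 effects were lower, beside 18.6% of all genes with a difference. These were Atf4 (-1.98 ± 0.24, adjusted p = 2.34e-05), Chac1 (-2.69 ± 0.75), Sesn2 (-2.27 ± 0.55, adjusted p = 0.00678), Herpud1 (-0.99 ± 0.25), Asns (-0.97 ± 0.27) and Xbp1 (-0.74 ± 0.18). The SE effect of Asns went from 0.46 at 12 h and 0.42 at 36 h to -0.51 at 72 h. Against its controls, Asns passed at none of these times. The Chac1 difference was -1.94 without replicate 3 of SE 12 h, where the call was lost (adjusted p = 0.0510), and -1.98 without replicate 2 of Ctr 72 h. The Asns difference was lost without the latter library (-0.77, adjusted p = 0.0724), and that of Xbp1 without any of 5 libraries (-0.61 to -0.65). Hspa5 (-0.82 ± 0.38, adjusted p = 0.125) and Atf5 (-0.36 ± 0.36) did not pass between 12 and 72 h, although Hspa5 did without replicate 3 of SE 72 h (-1.24, adjusted p = 0.0133).

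Within a group, the same library was often the highest or the lowest for several of the 10 genes. At 12 h after SE, replicate 3 was the highest of the group for 9 of the 10 genes, all but Asns, and replicate 1 the lowest for the same 9. At 6 h, replicate 1 was the lowest for 8 genes. At 36 h, replicate 2 was the highest for 7 (Atf4, Ddit3, Trib3, Chac1, Asns, Sesn2 and Herpud1) but the lowest for Atf5, while replicate 3 was the highest for Atf5, Xbp1 and Hspa5. At 72 h, replicate 3 was the highest for Atf5, Xbp1, Hspa5 and Herpud1 and the lowest for Atf4, Asns and Sesn2. After subtraction of the group means, the log2 CPM of pairs of the 10 genes was correlated across the 24 libraries. The r ranged from -0.525 (Asns and Xbp1) to 0.763 (Ddit3 and Trib3, the latter with few counts). The next highest were 0.705 for Ddit3 and Atf4 and 0.668 for Sesn2 and Asns. Other pairs were near 0, such as Trib3 and Xbp1 with 0.055. These values share libraries, depth and normalization and are given as a description. The libraries named also differed in marker sums: replicate 1 of SE 12 h and replicate 3 of SE 36 h were the ones with high sensory ganglion sums in their groups, and replicate 3 of SE 72 h was the one of its group with a low sum (20.2 CPM). At 6 h the library with the high sum, replicate 3, was the highest of its group for 7 of the 10 genes and the lowest for 0. Their part in these differences was not tested.

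**Figure D3:**
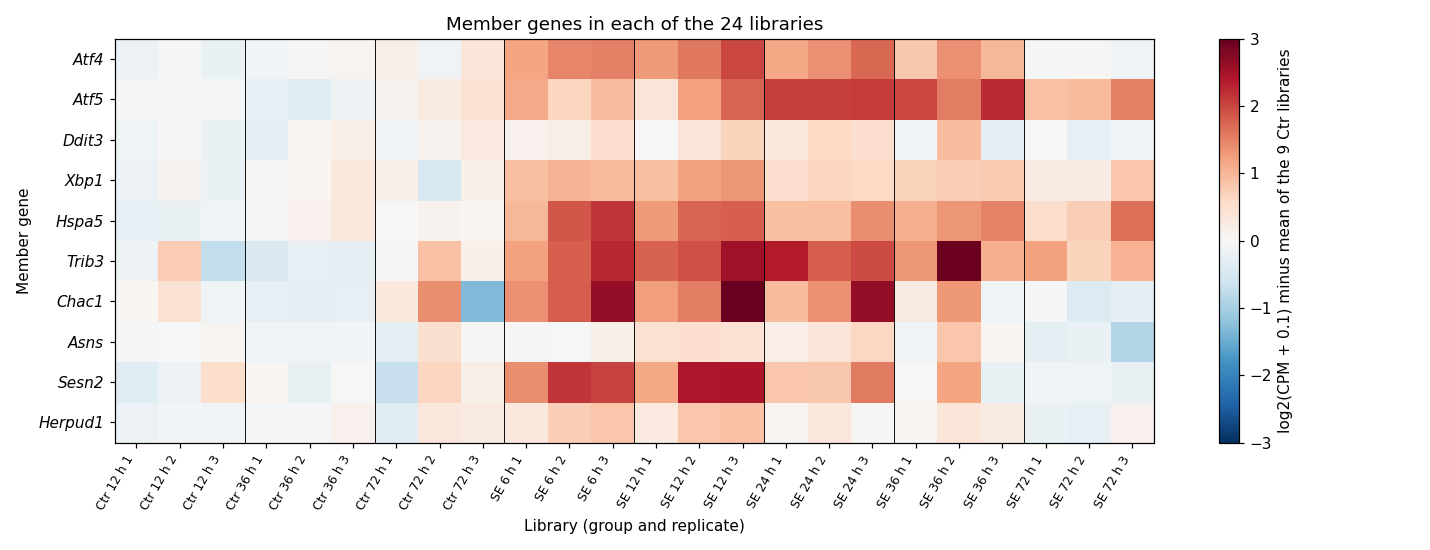
Colour gives log2(CPM + 0.1) minus the mean of the 9 control libraries for each of the 10 genes (rows) in each of the 24 libraries (columns, by group and replicate; black lines separate groups), with colours capped at 3. Within SE 36 h, replicate 2 is redder than its companions for Ddit3, Trib3, Chac1, Asns and Sesn2 and paler for Atf5.

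The other genes of the pathway were counted in lists taken from textbook knowledge, with earlier results of these data known. Of 24 ER chaperones and degradation factors, 1 rose by 6 h, 12 by 12 h and 9 by 24 h, while 13 were raised after 36 h and 11 after 72 h, and none fell. The share of all genes tested that rose at these times was 15.8%, 13.9%, 14.9%, 12.7% and 15.2%. Their median log2FC was 0.19, 0.63, 0.58, 0.75 and 0.65. For the SE effect at 72 h minus that at 12 h, the list had a median of -0.029, with 11 of 24 genes positive and 1 that passed, as higher. The 10 genes had a median of -0.98, with 0 of 10 positive, and all genes tested one of 0.15. The same 8, Dnajb11, Dnajc3, Edem1, Manf, P4hb, Pdia3, Sdf2l1 and Sec61b, rose at 12, 36 and 72 h. Sdf2l1, a partner of BiP, changed most at 12, 36 and 72 h, with log2FC of 2.58 ± 0.35, 1.76 ± 0.34 and 2.02 ± 0.38, and was the 1 gene of the list that rose at 6 h (1.65 ± 0.26). At 12 h it was followed by the secreted factors Creld2 (1.45 ± 0.27) and Manf (1.18 ± 0.20). At 36 h the degradation factor Edem1 (1.34 ± 0.14) and the disulfide isomerase P4hb (1.25 ± 0.09) came next, and at 72 h Pdia4, another disulfide isomerase (1.70 ± 0.19), and Edem1 (1.55 ± 0.15). Without replicate 3 of SE 72 h, the library with the high Hspa5, the number at 72 h was 7.

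**Figure D4:**
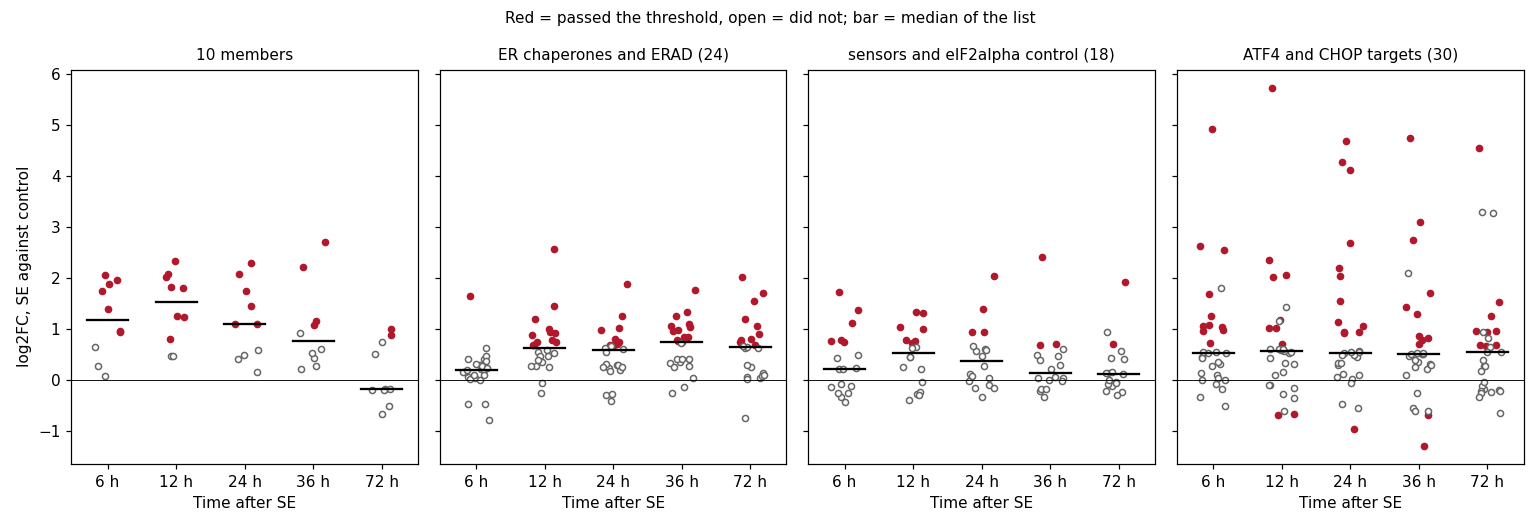
Log2FC of SE against control (y) at 5 time points (x) for the 10 genes, 24 ER chaperones and degradation factors, 18 sensors and eIF2alpha regulators and 30 tested ATF4 and CHOP targets; each point is a gene, red where it passed the threshold, and the bar is the median. The median of the 10 genes goes from 1.52 at 12 h to -0.18 at 72 h, while that of the ER chaperones is 0.63 and 0.65.

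Of 18 sensors, eIF2alpha kinases, phosphatase subunits and eIF2 or eIF2B subunits, 6, 7, 4, 3 and 2 rose in the 5 comparisons in order of time, and none fell. Set against the same shares of all genes, the counts at 36 and 72 h were near the background. At 12 h the largest changes were those of Ppp1r15a (log2FC 1.32 ± 0.33) and Ppp1r15b (1.32 ± 0.23), which encode the subunits that direct a phosphatase to eIF2alpha, and of the double-stranded RNA kinase Eif2ak2 (1.03 ± 0.33). Eif2ak2, an interferon-induced gene, had 2.42 ± 0.34 after 36 h and 1.91 ± 0.34 after 72 h. The sensors Atf6 (0.70 ± 0.19) and Ern1 (0.68 ± 0.20) passed at 36 h by a narrow margin, and the ATF6-processing protease gene Mbtps2 (0.69 ± 0.22) at 72 h. The PERK gene Eif2ak3 passed at 6 h (0.75 ± 0.14) and at none of the later times. The number was 1 at 36 h without replicate 2 of SE 36 h, and 1 at 72 h without replicate 2 of Ctr 72 h or replicate 1 of SE 72 h.

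Of 31 listed targets of ATF4 and CHOP, 30 were tested, and 11, 8, 12, 10 and 9 rose from 6 to 72 h while 0, 2, 1, 2 and 0 fell, beside the same shares of all genes that rose (15.8%, 13.9%, 14.9%, 12.7% and 15.2%). Cebpb, Mthfd2 and Nupr1 rose at 12, 36 and 72 h. At 12 h the stress factor Atf3 changed most (log2FC 5.74 ± 0.81), from 0.379 to 0.899 CPM in Ctr 12 h to 17.2 to 62.2 CPM in SE 12 h. It was followed by the factor Cebpb (2.36 ± 0.45) and the chromatin protein gene Nupr1 (2.06 ± 0.38). Nupr1 was the leading gene at 36 h (4.75 ± 0.42) and 72 h (4.55 ± 0.46), with 38.6 to 81.7 CPM at 72 h against 1.54 to 3.12 CPM in Ctr 72 h. At 36 h Stc2 (3.10 ± 0.83), a secreted glycoprotein gene, and Atf3 (2.74 ± 0.66) came next, and at 72 h Cebpb (1.52 ± 0.55) and the proline synthesis gene Pycr1 (1.25 ± 0.41). At 72 h, when the log2FC of Atf4 was -0.18, 9 listed targets were raised, or 3 with label range as a factor. In the fit with that factor, 1859 of the 18153 genes tested rose at 72 h, so these 3 of 30 were near the background. The fallen genes were Ddit4 and Phgdh, for serine synthesis, at 12 h, Phgdh at 24 h, and the cystine carrier gene Slc7a11 and the cell death gene Bbc3 at 36 h, and these 4 were named after their values were seen.

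The genes most like each of the 10 in pattern were found by the Pearson r of log2 CPM over the 24 libraries, among tested genes whose mean log2 CPM was 1 or more. Closest to Atf4 were Fndc9 (r = 0.98), Gipr (0.96) and Cgref1 (0.96). Atf5 was closest to Eif4ebp1 (0.93), Tm4sf1 (0.93) and Slc5a3 (0.92). Ddit3, whose r was lower, was closest to Flcn (0.79) and the aminoacyl-tRNA synthetase genes Sars1 (0.78) and Cars1 (0.76), and Asns to another such gene, Gars1 (0.84), Sqstm1 (0.83) and Gm47135 (0.81). Xbp1 was closest to Stk40 (0.92), Slc35e4 (0.92) and Zmiz1 (0.92), and Hspa5 to Tspan31, Midn and Hsd17b12 (0.93 each). Trib3 was closest to Klf6, Pecam1 and Adcy4 (0.93 each), Chac1 to Nfkbib (0.93), Tlk2 (0.91) and Zfp655 (0.91), Sesn2 to Ppp2ca (0.94), Gm13889 (0.94) and Dcaf10 (0.93), and Herpud1 to Tmem11 (0.89), Dcaf10 (0.88) and Stau1 (0.87). These are descriptions over libraries that share the SE and control groups.

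Cell type markers moved with time after SE as well. The 5 astrocyte markers summed to 1313 to 1724 CPM in controls and 2612 to 3357 CPM in SE 6 h. The sum was 3358 to 5280 CPM in SE 12 h and 9442 to 11130 CPM in SE 72 h. These markers did not all move the same way. At 12 h, 2 passed as higher and 1 as lower, at 24 h 2 and 2, and at 36 h 3 and 2. At 72 h, 3 passed as higher and 0 as lower. The 5 microglia markers summed to 219.7 to 285.3 CPM in controls, 150.9 to 156.6 CPM at 6 h and 939.5 to 1355 CPM at 72 h. The 5 neuron markers went from 5520 to 7621 CPM in controls to 3549 to 4102 CPM at 72 h, and the 4 CA1 pyramidal cell markers from 703.8 to 1407 CPM to 293.2 to 644.5 CPM. In Ctr 72 h alone, the CA1 markers summed to 753.3 to 987.2 CPM and the neuron markers to 5530 to 6152 CPM. Against Ctr 72 h, 2 of the 4 CA1 markers passed as lower and 1 had a positive log2FC, and 2 of the 5 neuron markers passed as lower. CA1 markers were present in all 24 libraries. The 3 dentate granule cell markers, from a neighbouring region, summed to 3.24 to 88.7 CPM in controls and reached 229.5 CPM in replicate 1 of SE 72 h. Replicates 2 and 3 had 16.4 and 23.8 CPM, Ctr 72 h had 3.24 to 15.2 CPM, and all 3 markers passed as higher at 72 h. The 2 measured CA3 markers summed to 128.8 CPM in replicate 3 of Ctr 12 h and to 26.4 and 24.5 CPM in its companions. The 4 oligodendrocyte markers summed to 1983 to 3425 CPM in controls, 4273 to 4497 CPM in SE 6 h and 1062 to 4909 CPM in later SE groups. The 4 vascular markers, Pecam1 among them, summed to 164.0 to 236.5 CPM in controls and 243.8 to 367.2 CPM after SE, with no overlap and the highest values at 24 h (345.1 to 367.2 CPM). Taken singly they differed: 2, 2, 3, 1 and 1 of the 4 passed as higher from 6 to 72 h, and none as lower. At each time from 6 to 36 h, 3 of the 4 had a positive log2FC, and at 72 h all 4 had one. The 4 measured leukocyte markers summed to 3.37 to 26.3 CPM in controls, the highest being a Ctr 72 h library, 7.64 to 8.71 CPM in SE 6 h and 42.0 to 42.8 CPM in SE 72 h. The part of these shifts in the levels of the 10 genes was not tested.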

How the data were processed

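RNA-seq of microdissected CA1 tissue gave 24 libraries in 8 groups of 3. The authors trimmed reads with Trim Galore 0.6.6, aligned them with STAR 2.7.8a to GRCm39, used SAMtools 1.10, and counted reads per gene (GENCODE M26) with HTSeq 0.13.5 without regard to strand. The deposited values are raw counts of 18647 genes per library, with totals from 2663936 to 30133731. Ambiguous reads were not counted, so genes with overlapping exons may be underestimated.

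Counts were tested with edgeR 4.0.16 (R 4.3.3): TMM normalization, filterByExpr (18153 genes kept), and the quasi-likelihood test with a term for each group plus 1 RUVr factor for unwanted variation, all 24 libraries in 1 fit, with Benjamini-Hochberg adjustment over all genes tested. SE at 6 and 24 h, which have no control of their own time, were compared with the mean of the 3 control groups. CPM are TMM-normalized. The steps were tested on simulated data. DESeq2 1.42.0 and limma 3.58.1 (voom) were alternatives, as were other normalizations, filters, thresholds, covariates and the omission of each library. Positions and exon lengths came from a later GENCODE release on GRCm39.

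The 10 genes, and the lists of related genes and markers, were chosen with earlier results of these data known. All 10 genes are named. From each list of related genes, the 3 with the largest absolute log2FC among those that passed at 12, 36 and 72 h, with a mean log2 CPM no lower than 1, are named, and other genes named were chosen after their values were seen. The replicate numbers in the labels do not pair the libraries: deviations from the group means of libraries with the same number correlated with a mean r of -0.0035 over 84 pairs.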

Additional observations from a re-analysis of the deposited data

Results flagged for a closer look

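For these genes, the effect of SE against the time-matched controls differed between time points by the test of the difference itself (edgeR's quasi-likelihood test, adjusted over all genes tested). Between 36 and 72 h the effect changed by a log2 value of -1.25 for Atf4, -1.33 for Atf5 and -0.93 for Asns. Between 12 and 72 h it changed by -1.98 for Atf4, -0.74 for Xbp1, -2.69 for Chac1, -0.97 for Asns, -2.27 for Sesn2 and -0.99 for Herpud1. All libraries of Ctr 72 h carry label numbers from 162 to 169 and none of SE 72 h does. Within the 72 h groups, this range and the SE effect cannot be told apart. A fit with range as a factor leans here on replicate 3 of Ctr 12 h and replicate 1 of SE 12 h. Groups of 3 libraries were too small for the test for a single outlying library.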

How the results depend on the processing

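Of 60 values of the 10 genes (50 log2FC of SE against control, 1 between SE time points and 9 differences of the SE effect), 59 kept their direction and their side of the threshold with DESeq2, 56 with limma-voom, 58 without the RUVr factor and 51 when the range of each label number entered as a covariate. With that covariate, Herpud1 at 24 h (-0.18) and Trib3 at 72 h (-0.18) were reversed, and the number of genes that passed was 3 in place of 6 at 24 h, 1 in place of 2 at 72 h and 1 in place of 0 for the SE effect at 36 h minus 12 h. The replicate block, though the numbers do not pair the libraries, changed none of the 60 calls and gave 1 in place of 0 for that difference, as did a fit of the compared groups only. With an absolute log2FC of at least 1 (0.66 between SE time points), the number was 1 at 72 h, 1 from 12 to 24 h, 3 in place of 1 from 36 to 72 h, and 3 in place of 6 for the effect at 72 h minus 12 h. With no such threshold it was 2 from 12 to 24 h and 3 from 36 to 72 h. For the effect at 72 h minus 36 h it was 1 in place of 3 without the RUVr factor and 1 with limma-voom. The cause of these changes was not tested.

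With each of the 24 libraries left out in turn, the number ranged from 7 to 8 (6 h), 8 to 8 (12 h), 4 to 6 (24 h), 4 to 5 (36 h) and 0 to 2 (72 h) for SE against control, the 0 being without replicate 3 of SE 72 h. It ranged from 0 to 1 from 12 to 24 h, 0 to 2 from 36 to 72 h, and 0 to 3, 1 to 3 and 4 to 7 for the effect at 36 h minus 12 h, 72 h minus 36 h and 72 h minus 12 h. The sign changed for Ddit3 at 36 h (-0.19 to 0.49), Sesn2 at 36 h (-0.0612 to 0.75) and Sesn2 at 72 h (-0.61 to 0.15). Trib3, with 1 to 46 counts a library, gave no value when counts were thinned to the smallest library.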

Other observations

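Chaperones of the cytosol and mitochondria, which answer unfolded proteins outside the ER, were also counted. Of 17, 8, 7, 5, 2 and 3 rose in SE against control from 6 to 72 h, and none fell, beside 15.8%, 13.9%, 14.9%, 12.7% and 15.2% of all genes tested that rose. Hspb1, a small heat shock protein gene, changed most, with a log2FC of 5.55 ± 0.43 (s.e.) after 12 h, 5.13 ± 0.42 after 36 h and 2.82 ± 0.42 after 72 h. The inducible HSP70 genes Hspa1b (4.71 ± 0.87) and Hspa1a (4.61 ± 0.82) followed at 12 h. These 2 are near-identical copies whose reads the counting could have split or dropped, so their values are uncertain. The co-chaperone gene Bag3 rose at 36 h (2.07 ± 0.31) and 72 h (1.14 ± 0.32), and the mitochondrial protease gene Htra2 at 72 h (0.69 ± 0.15). When the range of each label number entered as a covariate, 1 of the 17 passed at 72 h, beside 2460 of the 18153 genes tested.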
